A study of Mus musculus with 24 samples.

Results

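The genes described here are 35 mouse genes of chemokines, the secreted proteins that guide leukocytes into tissue, and of cytokines, the secreted signals that set the state of immune and other cells. They were chosen by name: 14 CC chemokines, 12 chemokines of the CXC and other classes and 9 cytokines. Probe sets that the array's annotation assigns to a single member gene gave values for 34 of the 35, of 18193 genes on the array. Ccl19 has no value, because its probe set is assigned to several genes. For each gene the probe set of highest mean log2 signal in a tissue was used, out of 53 member probe sets. 12 members had several probe sets and 22 had 1.

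Epididymal fat and liver were taken from 12 mice and hybridised to 24 arrays, 3 mice in each of 4 groups. The groups were GPR120 KO mice, which lack the long-chain fatty acid receptor encoded by Ffar4, and wild-type (WT) mice, each on normal diet (ND) or on high fat diet (HFD). All groups share a mixed 129/Sv and C57BL/6 background, and each mouse gave both tissues. Age, time on the diet and the way the allele was made are not given in the sources used here. Sex is not stated there either, but epididymal fat is a depot of males. The comparisons ask how the knockout changes these genes on each diet, how the diet changes them in each genotype, and whether fat and liver differ.

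The signals are in the arbitrary intensity units of the MAS5 algorithm, scaled so that every array has a trimmed mean of 100.03 to 100.05. The median probe set stood at 19.3 units in fat and 12.95 in liver. That level was the filter: a gene was tested in a tissue only if its mean log2 signal reached it, and a gene, or a group whose mean signal is below it, is called dim here. Differences are on the log2 scale with the standard error (SE) of the limma fit, and a gene is called when its adjusted p is under 0.05. With 3 mice a group, the p-values rest on the spread between mice, pooled over all groups fitted. The limma fit also draws that spread toward the spread of other genes. Replicate arrays ranked the genes alike, with Spearman coefficients of 0.889 to 0.964 within groups. Ffar4 itself read 26.5, 30.5 and 23.1 in fat of KO mice on HFD against 97.3, 126 and 171 in WT mice (-2.27 ± 0.21, adjusted p = 0.000215), and 34.2, 33.7 and 35.7 against 61.95, 58.3 and 73.7 on ND (-0.90 ± 0.21, adjusted p = 0.111). In fat every array labelled KO was below every WT array on both diets. In liver the probe set was under the filter and ran against the labels. It read 13.5 to 18.3 in livers labelled KO against 0.550 to 1.63 in livers labelled WT on HFD, and 21.5 to 36.8 against 1.07 to 17.3 on ND. Liver groups are therefore given as labelled, and every direction between genotypes in liver rests on those labels. The labels do not say whether the knockout removes the sequence this probe set reads.

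Chemokines act through G protein-coupled receptors on leukocytes and are named for the spacing of their first cysteines: CC, CXC, CX3C and XC. In obese fat, chemokines such as CCL2 are known for drawing monocytes in from the blood, and macrophages and fat cells then release cytokines such as TNF and interleukin 6. In liver, resident macrophages, hepatocytes and endothelial cells are all sources. Many of these genes are switched on by the transcription factor NF-kB and by interferons. By their annotated positions 10 members lie on chromosome 11, where the CC chemokines cluster, and 9 on chromosome 5, where most of the CXC chemokines do.

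In fat on HFD 10 chemokine genes and 1 cytokine gene were higher in KO than in WT mice. Of 22 members tested, 11 rose and none fell. Among all 11613 genes tested 11.1% rose and 11.4% fell. The median member differed by 0.73 on the log2 scale and the median gene by -0.03. In 12 members every KO array was above every WT array and in 1 every KO array was below, as in 18.3% and 19.7% of all genes. The largest rises were of Cxcl14, Ccl2 and Ccl7, at 5.58-, 5.38- and 3.71-fold. Ccl4 and Ccl7 reached the filter through the KO arrays on HFD alone. Those had to be the higher ones, so neither call carries weight. Both genes are still included in the 11 members that rose and in the 12 that stood apart. By class, 6 of 9 CC chemokines, Ccl4 and Ccl7 among them, 4 of 9 other chemokines and 1 of 4 cytokines rose. In bulk tissue, more cells of a type and more RNA per cell cannot be told apart.

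**Figure D1:**
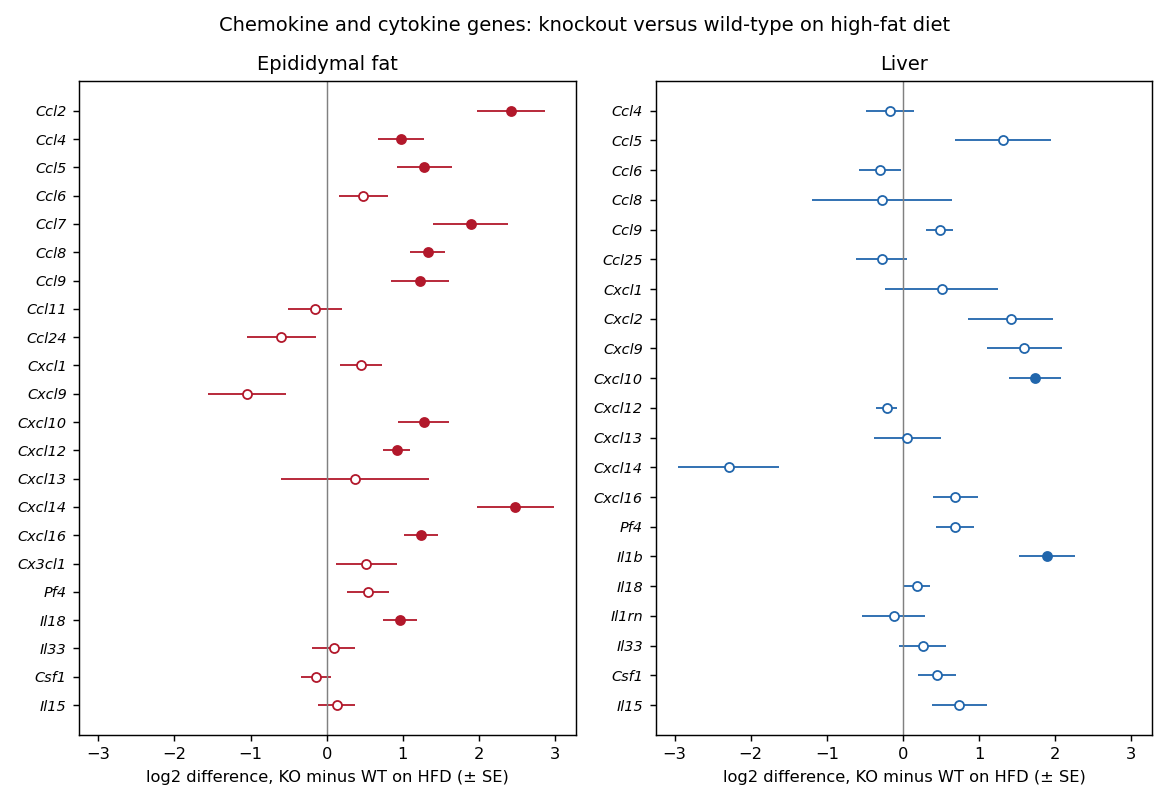
Log2 difference of KO minus WT mice on HFD (x axis, bars are ± SE of the limma fit, 3 mice a group) for each tested member in epididymal fat (left) and liver (right). Filled points have an adjusted p under 0.05: 11 of 22 members in fat, all to the right of 0, and 2 of 21 in liver, Cxcl10 and Il1b. The 11 include Ccl4 and Ccl7, which reached the fat filter through the KO arrays on HFD alone.

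Among the CC chemokines, Ccl2, which recruits monocytes through the receptor CCR2, read 409.6, 464 and 739 in KO mice on HFD and 82.3, 186 and 58.8 in WT mice. Every KO array was above every WT array, and the rise was 2.43 ± 0.45 (5.38-fold, adjusted p = 0.00358). Ccl7, a second ligand of CCR2, read 134, 157 and 202 against 58.9, 65.3 and 21.7 (1.89 ± 0.49, adjusted p = 0.0178). Ccl8, a further monocyte attractant, read 1511, 1046 and 1309 against 524, 519 and 477 (1.33 ± 0.23, adjusted p = 0.00269). For both genes the groups stood apart, and the WT arrays of Ccl8 were close to each other while 1 WT array of Ccl7, of mouse 560, was low. The call of Ccl7 was lost without KO mouse 429 (adjusted p = 0.0688) or without WT mouse 560 (0.066).

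Ccl5, a chemokine that T cells and macrophages make, read 214, 100 and 104 against 45.9, 77.8 and 42.9 (1.29 ± 0.37, adjusted p = 0.0276). Ccl4, a chemokine of activated macrophages, read 34.6, 35.7 and 51.5 against 15.99, 27.7 and 18.7 (0.98 ± 0.30, adjusted p = 0.0381). Ccl9, a macrophage-derived ligand of CCR1, read 2524, 3335 and 4147 against 1063, 2419.7 and 1058 (1.23 ± 0.38, adjusted p = 0.0378). The groups did not overlap for any of these 3 genes, and the gap between the lowest KO and the highest WT array was small in each. Of the WT arrays of Ccl4, 2 of 3 were under the filter. Each call was lost without certain single arrays. For Ccl5 these were mice 427, 546 and 560 (adjusted p = 0.0753 to 0.102). For Ccl4 they were mice 428, 429, 546 and 560 (0.0515 to 0.136), and the same 4 mice ended the call of Ccl9 (0.0763 to 0.14). The call of Ccl4 was also lost with quantile normalization (0.0512), with no filter (0.0659) and with only the arrays compared (0.0708). That of Ccl9 was lost with no filter (0.0598) and with only the arrays compared (0.052), and so was that of Ccl5 in the latter (0.05004).

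The other 3 tested CC chemokines did not pass. Ccl6, like Ccl9 a macrophage-derived ligand of CCR1, differed by 0.48 ± 0.32, adjusted p = 0.315. The eosinophil attractants Ccl11 (eotaxin) and Ccl24 differed by -0.15 ± 0.35, adjusted p = 0.794, and by -0.60 ± 0.45, adjusted p = 0.378. Their signals overlapped between genotypes, at 315 to 689 in KO mice and 425 to 797 in WT mice for Ccl11.

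Of the other chemokines, Cxcl14, a chemokine made by many epithelia, read 94.3, 64.2 and 286 in KO mice on HFD and 24.8, 35.2 and 11.4 in WT mice (2.48 ± 0.50, adjusted p = 0.0059). The KO arrays spread widely, with mouse 429 highest, and all were above the WT arrays. A second, dimmer Cxcl14 probe set differed by 1.27. Cxcl16, a membrane-bound ligand of CXCR6, read 119, 97.2 and 165 against 50.3, 58.1 and 49.7 (1.24 ± 0.22, adjusted p = 0.00311). Cxcl10, an interferon-induced ligand of CXCR3, read 67.7, 47.2 and 42.2 against 20.02, 21.9 and 21.7 (1.27 ± 0.34, adjusted p = 0.0194). Again the groups stood apart, with the WT arrays of Cxcl10 just above the filter. The call of Cxcl10 was lost without mouse 427 (adjusted p = 0.06), 546 (0.0572) or 560 (0.0524), and without mice 427 and 547 together, which an earlier analysis of these data had set apart (0.0836).

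Cxcl9, a ligand of the same receptor as Cxcl10 and its neighbour on chromosome 5, did not share its direction. It read 414, 301 and 163 in KO mice and 669, 614 and 436 in WT mice. Every KO array was below every WT array, but the difference did not pass the test (-1.05 ± 0.52, adjusted p = 0.172). Both genes are known as targets of interferon gamma. Whether their differences differ from each other was not tested.

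Cxcl12, the stromal ligand of CXCR4, read 899.6, 805 and 739 against 376, 358 and 588 (0.92 ± 0.18, adjusted p = 0.00467). Every KO array was above every WT array. Its 2 bright probe sets disagree: the one used rose by 0.92 and the other differed by -1.02, and the mean of its probe sets was not called (adjusted p = 0.148). The direction of Cxcl12 in fat thus depends on the probe set. Cxcl1, a neutrophil attractant, differed by 0.45 ± 0.27, adjusted p = 0.263 on the probe set used in fat, and by 0.997 and 1.10 on its other probe sets. Cx3cl1 (fractalkine), Cxcl13, the B cell attractant, and the platelet and macrophage chemokine Pf4 differed by 0.52, 0.38 and 0.54 without a call. The WT arrays of Cxcl13 were far from each other, at 31.2, 786 and 65.8, with mouse 547 highest. B cell markers summed to 215 to 3211 and skeletal muscle markers to 252 to 5199.9 in that group, against 1875 to 4063 and 189 to 854 in KO mice, and their part was not tested. For Pf4 the groups stood apart, at 1061 to 1733 against 798 to 984.

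Of the cytokines, Il18, a product of the inflammasome pathway, read 185, 127 and 265 against 104, 96.2 and 83.6 and rose (0.97 ± 0.23, adjusted p = 0.0117). The macrophage growth factor gene Csf1, the alarmin gene Il33 and the lymphocyte growth factor gene Il15 differed by -0.14, 0.09 and 0.13. These 3 did not pass, and their groups overlapped.

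**Figure D2:**
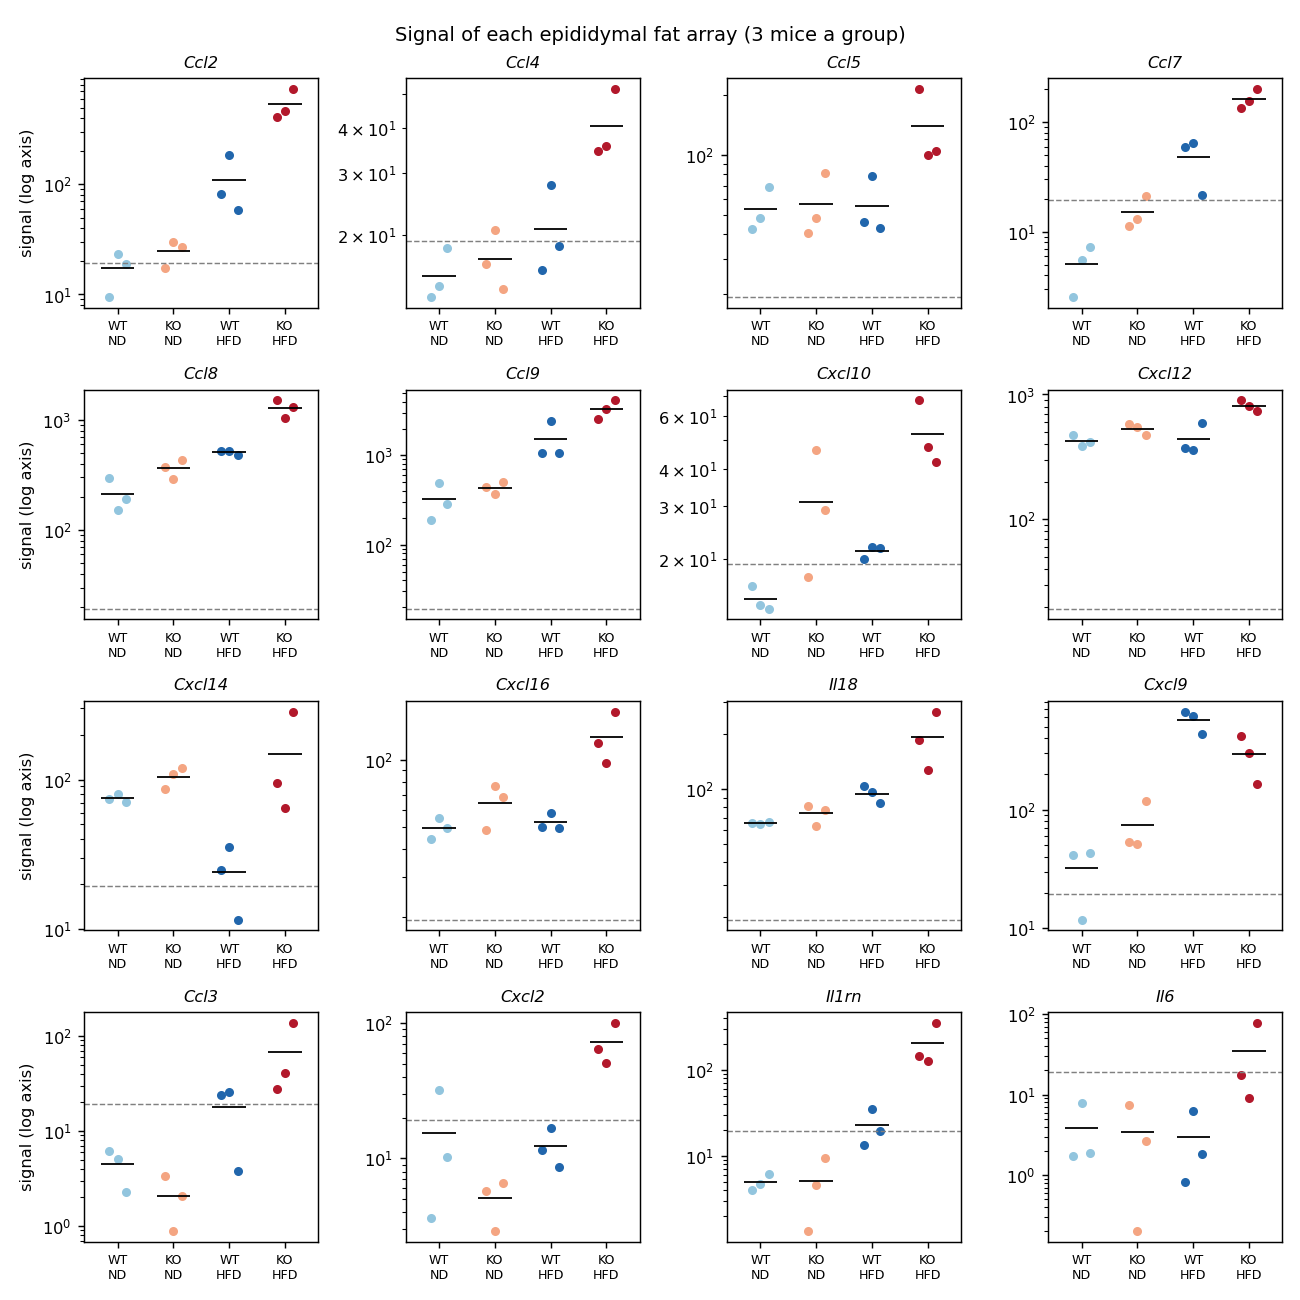
Signal of each epididymal fat array (y axis, MAS5 units, log scale) for 16 members in the 4 groups of genotype and diet. Each point is 1 mouse, the bar is the mean of 3 mice and the dashed line is the filter at 19.3. The KO arrays on HFD are the highest for Ccl2, Ccl7, Ccl8, Cxcl2 and Il1rn, and the WT arrays on HFD are the highest for Cxcl9.

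12 members were under the filter in fat. Tested again with all 18193 genes and no filter, 2 of these 12 were called higher in KO mice on HFD. Of all genes 12.9% were called in that test, in either direction. Il1rn, the secreted antagonist of the interleukin 1 receptor, read 145, 127 and 351 in KO mice and 13.6, 35.1 and 19.6 in WT mice (3.14 ± 0.68, adjusted p = 0.0131). Its 3 probe sets were all higher in KO mice, by 3.14, 2.74 and 4.22. Cxcl2, a neutrophil attractant, read 64.3, 50.8 and 99.8 against 11.6, 16.6 and 8.71, at least 3.56-fold higher with the dim WT arrays raised to the filter (adjusted p = 0.0355). For both genes every KO array was above every WT array and above the filter. The call of Il1rn was lost without mouse 429 (0.0595) or 546 (0.0533), and that of Cxcl2 without any 1 of the 6 arrays (0.0511 to 0.129).

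The promoter windows of Cxcl1, Cxcl2 and Cxcl10, which all lie on chromosome 5, are shown because they are the CXC chemokines among the members that hold a match to the consensus of NF-kB, the factor known for switching on inflammatory genes. The windows are 250 bases before to 50 after the transcription start in RefSeq, build GRCm38.p6. They are Cxcl1 at chr5:90890995-90891294 on the plus strand, Cxcl2 at chr5:90903649-90903948 on the plus strand and Cxcl10 at chr5:92348840-92349139 on the minus strand, each printed 5′ to 3′ along the gene with matches in capitals.
Cxcl1: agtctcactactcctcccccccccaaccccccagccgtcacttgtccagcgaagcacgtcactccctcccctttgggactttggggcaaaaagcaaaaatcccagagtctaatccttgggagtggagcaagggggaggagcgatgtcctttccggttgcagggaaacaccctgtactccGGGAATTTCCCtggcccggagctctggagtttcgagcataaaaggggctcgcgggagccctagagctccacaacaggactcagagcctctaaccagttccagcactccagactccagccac
Cxcl2: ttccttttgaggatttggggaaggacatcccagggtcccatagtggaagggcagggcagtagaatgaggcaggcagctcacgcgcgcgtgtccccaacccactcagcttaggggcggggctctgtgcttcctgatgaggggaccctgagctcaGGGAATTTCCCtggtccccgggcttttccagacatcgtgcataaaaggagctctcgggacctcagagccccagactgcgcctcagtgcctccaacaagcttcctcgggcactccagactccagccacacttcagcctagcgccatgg
Cxcl10: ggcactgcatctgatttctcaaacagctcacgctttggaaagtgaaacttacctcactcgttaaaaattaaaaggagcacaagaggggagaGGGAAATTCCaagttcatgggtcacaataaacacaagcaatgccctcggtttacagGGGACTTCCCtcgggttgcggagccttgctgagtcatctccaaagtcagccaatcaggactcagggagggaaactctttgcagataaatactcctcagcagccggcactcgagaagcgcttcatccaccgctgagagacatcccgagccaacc
Cxcl1 and Cxcl2 carry the same 11 capitals, in which a match on each strand overlaps, starting 71 and 70 bases before the start in Cxcl1 and 97 and 96 in Cxcl2. Cxcl10 has 2 separate matches, 159 and 103 bases before the start. Searched on both strands, the 10-base NF-kB consensus was found in 6 of the 25 members that had a window in the set of promoters used. They are these 3 with Ccl9, Il6 and Csf1. Of all genes in that set 1388 of 27025 held a match (5.14%). The other 10 members had no window in that set and were not searched: Ccl2, Ccl4, Ccl5, Ccl7, Ccl11, Ccl24, Cxcl5, Cxcl16, Il10 and Il15. Cxcl9 has a window without a match. A match describes these letters only.

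The cytokines best known from obese fat were dim or not called. Tnf read 11.5, 13.8 and 15.6 in KO mice on HFD against 8.46, 7.10 and 2.16, all under the filter. Il6 read 17.5, 9.02 and 78.1 against 0.830, 6.24 and 1.84, and only mouse 429 was above the filter. Ccl3, a ligand of CCR1, read 27.5, 40.5 and 137 against 24.2, 25.8 and 3.80. None of these 3 was called between the genotypes (0.143, 0.0573 and 0.161 as adjusted p), although every KO array was above every WT array. Il1b read 12.4 to 31.6 over the 12 fat arrays and Il10, which restrains inflammation, 2.37 to 16.6. The T cell attractants Ccl17 and Ccl22 read 2.40 to 21.4 and 0.810 to 15.4. Ccl25, Cxcl5 and Xcl1 read 8.03 to 31.3, 0.150 to 5.58 and 0.680 to 16.2.

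The count of 11 members moved with single arrays. It was 6 without the fat array of WT mouse 560, 7 without that of 546 and 8 without that of KO mouse 429, and 9 to 11 without each of the others. It was 8 when only the arrays compared were fitted and 10 with quantile normalization or with an average over each gene's probe sets. Ccl2, Ccl8, Cxcl14, Cxcl16 and Il18 were called under all 13 alternatives.

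Receptors and regulators of these signals were listed too. Of all genes tested in fat on HFD 11.1% rose and 11.4% fell. Of 10 chemokine receptor genes tested there, 3 rose and 1 fell. The fractalkine receptor gene Cx3cr1 rose by 1.23, adjusted p = 0.00288, the CXCL12 receptor gene Cxcr4 by 1.01, adjusted p = 0.0178, and the scavenging receptor gene Ackr4 by 0.78, adjusted p = 0.0394, while Ackr3, which takes up CXCL12, fell (-0.77, adjusted p = 0.0057). Ccr2, the receptor of CCL2 and CCL7, was chosen after its values were seen: it differed by 1.06 and was not called (adjusted p = 0.109). Of 13 cytokine receptor genes 5 rose and 2 fell. Those of smallest p were the TNF receptor gene Tnfrsf1b (1.37, adjusted p = 0.00174), Il6st, the shared receptor subunit of the interleukin 6 family, which fell (-0.58, adjusted p = 0.00691), Il10rb (0.98, adjusted p = 0.00929) and Il1rap (0.82, adjusted p = 0.0176). Of 22 regulators 10 rose and 1 fell, with Irf8 (1.56, adjusted p = 0.00104), the inflammasome genes Casp1 (1.43, adjusted p = 0.00136) and Pycard (1.95, adjusted p = 0.00148), and Tlr2 (1.30, adjusted p = 0.00144) having the smallest p. The called receptors thus moved in both directions and the called regulators mostly upward.

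Markers of other cells moved with the same comparison, where 11.1% of all genes rose and 11.4% fell. Of 15 macrophage markers tested, 12 rose and 1, Cd163, fell. The summed signal of all 18 was 17551 to 28123 in KO mice on HFD, 7875 to 12324 in WT mice on HFD, 4226 to 5379 in KO mice on ND and 2932 to 3754 in WT mice on ND. Clec4f, Timd4 and Marco, markers of resident macrophages, were dim in all 4 groups. Of 7 endothelial markers tested 7 fell, with sums of 1103 to 1654 against 3208 to 3870.5 on HFD, and of 7 adipocyte markers 3 fell, with sums of 17955 to 27087 against 27492 to 29867. Of 3 mast cell and eosinophil markers tested 2 rose. The sums of all 8 in that list were 322 to 982 against 156 to 196, and Tpsb2, Siglecf, Prg2 and Epx were dim in both. Of 8 fibroblast and mesothelium markers 4 rose. Of 2 neutrophil markers tested 1 rose, with sums of 632 to 1501 against 181 to 382. The markers Cxcr2, Ngp, Camp, Ltf, Mpo and Elane were dim in both genotypes on HFD. Of 4 T and NK cell markers none was called by limma, with 1 at an unadjusted p under 0.05 (349.8 to 532 against 248 to 358). The log2 ratio of the 3′ to the 5′ control probe sets of Actb, which rises as RNA breaks down, was 0.73 ± 0.10 (SD, n = 3) in KO mice and 1.44 ± 0.28 in WT mice on HFD. The part of these cell types and of RNA quality in the chemokine differences was not tested.

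On normal diet no member was called between the fat of KO and WT mice, and all tested members read higher in KO mice. None of the 22 tested members was called by limma, where 0.215% of all genes were called higher and 0.0344% lower. An unadjusted p under 0.05 was found for 5 members, and the share of all genes at that level was not computed. All 22 differences were above 0, from 0.06 to 1.66, with a median of 0.45 against 0.07 for all genes. The share of all genes above 0 was not computed. The count of members above 0 was 20 without the fat array of WT mouse 686 and 21 with the average over each gene's probe sets. It was 16 without the arrays of 686 and 690, where the median gene stood at -0.01. None of the receptors or regulators was called by limma on ND either, with 2 of 10, 2 of 13 and 3 of 22 at an unadjusted p under 0.05. In 6 members every KO array was above every WT array, as in 16.1% of all genes. Ccl7 was one of them, at 11.2, 13.2 and 21.3 in KO mice and 2.52, 5.53 and 7.19 in WT mice, most of them under the filter. Cxcl10 was another, at 17.4, 46.3 and 29.1 against 16.3, 14.1 and 13.7 (adjusted p = 0.237). Ccl2, which had risen on HFD, overlapped between the genotypes on ND, at 17.4, 29.7 and 26.9 against 9.43, 23.4 and 18.8. The macrophage marker sums on ND, given above, were higher in all 3 KO mice than in the WT mice, and their part in these differences was not tested.

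Many of the tested members were higher on high fat diet than on normal diet in fat of both genotypes. The diet groups also differed in epididymis, epithelial and macrophage markers, as given below, and the part of these was not tested. In WT mice 12 of 22 rose and 2 fell, where 27.9% of all genes rose and 27.4% fell. Among the 12 is Ccl24, which reached the filter through the WT arrays on HFD alone. Those had to be the higher ones, so its call carries no weight. The WT rises were 11 without mouse 546, 560 or 686, 10 without mice 686 and 690 together, and 15 with quantile normalization. In KO mice 16 of 22 rose and 2 fell, where 22.1% of all genes rose and 26.6% fell. The 16 include Ccl4 and Ccl7, which reached the filter through the KO arrays on HFD alone, so neither call carries weight. The median member differed by 0.85 in WT and 1.25 in KO mice, against -0.03 and -0.08 for all genes. These comparisons share their HFD arrays with the genotype comparison above. By class, 7 of 9 CC chemokines rose in WT mice, with Ccl24 counted, and 8 of 9 in KO mice, with Ccl4 and Ccl7 counted.

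In WT mice the widest rise was of Cxcl9, from 41.8, 11.8 and 43.3 on ND to 669, 614 and 436 on HFD (4.35 ± 0.52, adjusted p = 4.79e-05). Ccl11 went from 53.05, 81.6 and 98.2 to 425, 797 and 541 (2.92 ± 0.35, adjusted p = 5.09e-05). Ccl9 went from 187, 495 and 284 to 1063, 2419.7 and 1058 (2.23 ± 0.38, adjusted p = 0.000505). Every HFD array of these 3 genes was above every ND array. Ccl7 was dim on ND, at 2.52, 5.53 and 7.19, and was at least 2.26-fold higher on HFD (48.6 against 5.08, adjusted p = 0.000239). Ccl2 was at least 4.69-fold higher (109 against 17.2, adjusted p = 0.000593) and Ccl24 at least 2.40-fold (48.3 against 9.14, adjusted p = 0.00095). As said above, the call of Ccl24 carries no weight here. Apart from Ccl24, the WT rises include attractants of monocytes, of eosinophils (Ccl11) and, with Cxcl9, of activated T cells.

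Further rises in WT fat were of Pf4 (1.85), Ccl6 (1.74), Il15 (1.62), Ccl8 (1.30), Csf1 (0.93) and Cxcl1 (0.78), with adjusted p from 0.000202 to 0.0314. Cx3cl1, which is both an adhesion protein and a chemokine, fell from 53.6, 83.2 and 82.8 to 23.7, 12.9 and 22.7 (-1.91 ± 0.40, adjusted p = 0.00193). Cxcl14 fell from 73.8, 80.3 and 70.3 to 24.8, 35.2 and 11.4 (-1.80 ± 0.50, adjusted p = 0.0106). The HFD arrays of both lay below the ND arrays. The call of Cxcl1 was lost without mouse 546, 560 or 686 (adjusted p = 0.0696 to 0.115). The fat arrays of WT mice 686 and 690 on ND hold the most of the sperm transcript Prm1, up to 4617 against 451 in the other WT array on ND. Without both, Cxcl1 (0.302), Csf1 (0.0905) and Cxcl14 (0.0858) were not called.

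In KO mice Ccl2 rose most of the 22, from 17.4, 29.7 and 26.9 to 409.6, 464 and 739 (4.43 ± 0.45, adjusted p = 2.34e-05). Ccl9 went from 439, 366 and 499.9 to 2524, 3335 and 4147 (2.92 ± 0.38, adjusted p = 0.000112), and Ccl11 from 128, 86.8 and 156 to 315, 689 and 611 (2.09 ± 0.35, adjusted p = 0.000614). Cxcl9 went from 53.7, 51.7 and 118 to 414, 301 and 163 (1.98 ± 0.52, adjusted p = 0.00861). The diet groups stood apart for all 4. Ccl7 was at least 8.12-fold higher on HFD (164 against 15.2, adjusted p = 0.000201). Pf4 (1.94), Ccl8 (1.83), Ccl6 (1.77), Il18 (1.33), Il15 (1.28), Ccl5 (1.27), Cxcl1 (1.05), Cxcl16 (0.96), Cxcl12 (0.62) and Csf1 (0.53) rose too, with adjusted p from 9.79e-05 to 0.0393. Ccl4 was at least 2.02-fold higher (40.6 against 17.1, adjusted p = 0.00605). As said above, the calls of Ccl4 and Ccl7 carry no weight here.

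The falls in KO fat were of Cx3cl1, from 82.8, 92.8 and 93.2 to 47.7, 14.3 and 30.3 (-1.71 ± 0.40, adjusted p = 0.0046), and of Il33, from 187, 199 and 154 to 121, 61.9 and 115 (-0.91 ± 0.28, adjusted p = 0.0192). Both sets of HFD arrays were below all ND arrays. Leaving out single arrays ended the call of Csf1 (each of the 6, adjusted p = 0.056 to 0.123), of Il33 (428, 718 or 719, 0.0556 to 0.0727), of Ccl5 (718, 0.06) and of Cxcl12 (720, 0.0583). Cxcl12 was also lost with the average of its probe sets (0.0753), and Csf1 with no filter (0.0531). With the unfiltered test 5 members that were dim on ND also rose in KO mice. Of all genes 33.1% were called in that test, in either direction. Il1rn went from 1.34, 4.66 and 9.46 to 145, 127 and 351, at least 9.63-fold (adjusted p = 0.000139). Cxcl2 rose at least 3.56-fold (0.00157), Ccl3 at least 2.77-fold (0.00149) and Il6 at least 1.20-fold (0.04). Tnf was called as well (0.00194), from 1.33, 1.39 and 2.15 to 11.5, 13.8 and 15.6, but both groups were dim and no fold is given. The call of Il6 was lost without mouse 427, 429, 719 or 720 (0.0587 to 0.152).

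Of these 5 genes Il1rn was also called in WT fat, from 4.07, 4.77 and 6.13 to 13.6, 35.1 and 19.6 (at least 1.09-fold, adjusted p = 0.0287), a call lost without any of mice 547, 560, 686, 687 and 690 (0.0501 to 0.102). Ccl3, Cxcl2, Tnf and Il6 were not called there. Without the filter 41.9% of all genes were called with diet in WT fat, in either direction.

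**Figure D3:**
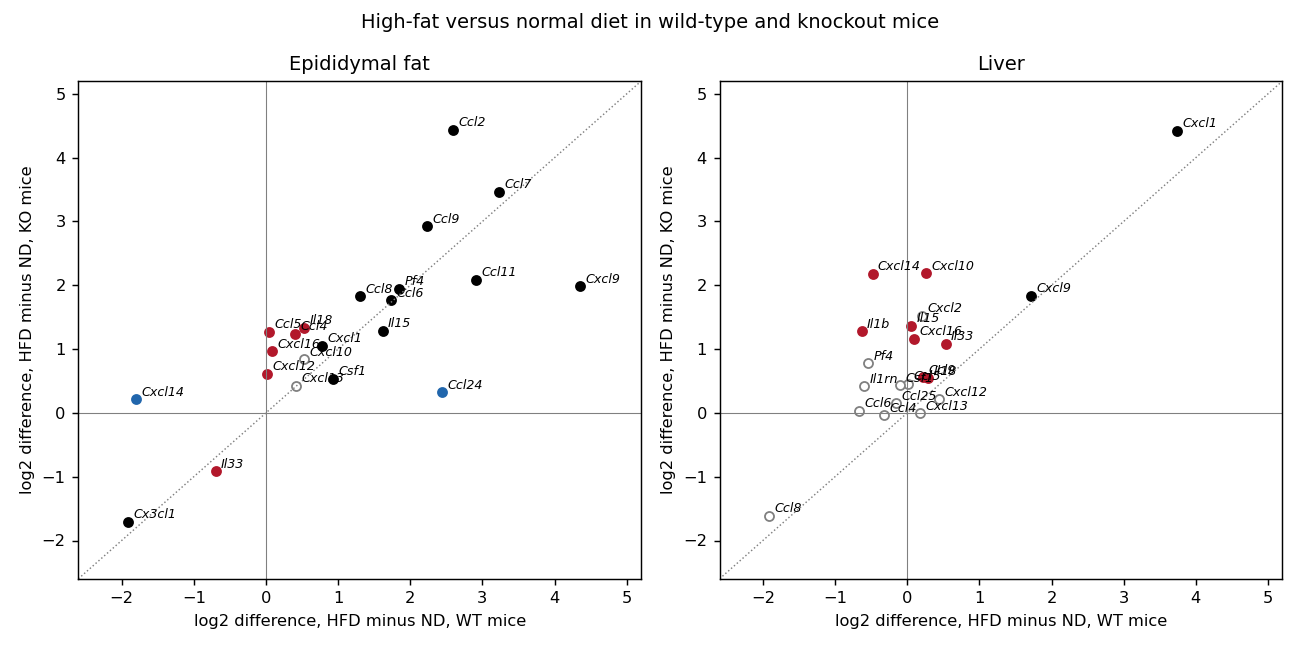
Log2 difference of HFD minus ND in KO mice (y axis) against that in WT mice (x axis) for the tested members, 3 mice a group, in epididymal fat (left) and liver (right). Black points were called in both genotypes, red in KO mice alone, blue in WT mice alone and open circles in neither; the dotted line marks equal differences. Cxcl9 and Ccl24 in fat lie far below the line and Ccl2 above it, and in liver Cxcl1 is far from the rest in both genotypes. Ccl24 reached the fat filter through the WT arrays on HFD alone, and Ccl4 and Ccl7 through the KO arrays on HFD alone.

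Whether the diet acts differently in the genotypes was tested by the interaction. In fat no member was called by limma, where 3.76% of all genes were called higher and 7.2% lower. An unadjusted p under 0.05 was found for 8 members, and the share of all genes at that level was not computed. The differences nearest the threshold were of Ccl24 (-2.11 ± 0.64, adjusted p = 0.0573), Cxcl9 (-2.36 ± 0.73, adjusted p = 0.0606), Ccl2 (1.85 ± 0.63, adjusted p = 0.0843), Cxcl14 (2.01 ± 0.71, adjusted p = 0.0935) and Cxcl16 (0.88 ± 0.31, adjusted p = 0.0946). A call in KO mice alone, such as that of Ccl5 or Cxcl16, is therefore not shown to differ from the WT response. The number called was 3 without mouse 428, and 1 without mouse 427, 547, 560 or 686. Ccl24, the nearest to the threshold, reached the filter through the WT arrays on HFD alone, so its difference carries no weight.

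The diet comparisons in fat differ in more than diet. Epididymis and testis markers summed to 43722 to 59934 in WT and 35188 to 43839 in KO fat on ND, and to 166 to 288 and 29.3 to 3631 on HFD. All 10 were above the filter on ND, and Lcn5, Adam7, Rnase10, Lcn9, Cst11 and Defb15 were dim on HFD. Epithelial markers summed to 6549 to 8932 and 7692 to 8646 on ND and to 118 to 413 and 66.2 to 2456 on HFD. Macrophage marker sums were also higher on HFD than on ND in both genotypes, as given above. The Actb 3′ to 5′ ratio was 1.44 ± 0.28 (SD, n = 3) on HFD and 0.90 ± 0.02 on ND in WT fat. In KO fat it was 0.73 ± 0.10 and 0.80 ± 0.07. The part of these cells and of RNA quality in the rises and falls with diet was not tested.

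Chemokine and cytokine receptors were called with diet in fat as well. Of all genes 27.9% rose and 27.4% fell in WT mice, and 22.1% rose and 26.6% fell in KO mice. Of 10 chemokine receptor genes 8 rose and 1 fell in WT and 8 rose and none fell in KO mice, with Ackr3 (1.56, adjusted p = 1.62e-05) and Ackr1 (1.46, adjusted p = 4.05e-05) of smallest p in WT and Cxcr4 (2.64, adjusted p = 2.12e-05) and Ackr1 (1.68, adjusted p = 2.34e-05) in KO mice. Of 13 cytokine receptor genes 7 rose in WT, led by Csf1r (1.86, adjusted p = 3.09e-06) and Il6st (1.39, adjusted p = 6.61e-06). In KO mice 8 rose and 1 fell, with Il6ra (1.99, adjusted p = 7.45e-06) and Csf1r (1.63, adjusted p = 9.21e-06). Of 22 regulators 13 rose and 3 fell in WT and 13 rose in KO mice, and Casp1 was first in both (2.80, adjusted p = 2.98e-06 and 3.69, adjusted p = 7.94e-07), followed by Tlr4 (2.11, adjusted p = 6.14e-05) in WT and Irf8 (2.56, adjusted p = 8.52e-06) in KO mice. The interaction called Ackr3 (-1.43, adjusted p = 0.00511) among the chemokine receptors, 1 higher and 2 lower of the cytokine receptors and 6 higher of the regulators. Of all genes it called 3.76% higher and 7.2% lower.

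In livers labelled KO on HFD 2 of 21 tested members were higher than in those labelled WT and none was lower, where 3.73% of all genes rose and 2.98% fell. The median member differed by 0.45 and the median gene by -0.03. Cxcl10 read 129.98, 107 and 92.02 in KO mice and 40.2, 32.98 and 26.01 in WT mice (1.74 ± 0.34, adjusted p = 0.01). Il1b, the main inflammasome-processed cytokine, read 85.8, 77.6 and 69.6 against 17.5, 25.5 and 20.4 (1.89 ± 0.37, adjusted p = 0.00963). Both KO groups were well apart from the WT groups. The call of Cxcl10 was lost without KO mouse 427 (0.0556), which left 1 call, and without WT mouse 560 there were 3 calls.

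A further 8 members had KO and WT liver arrays apart on HFD without a call. With the called members, 8 were apart and higher in livers labelled KO and 2 apart and lower, where 13.6% and 15.7% of all genes were. Cxcl9 read 267, 342 and 255 against 138, 91.02 and 66.9 (1.60 ± 0.49, adjusted p = 0.0685). Cxcl14 read 16.3, 10.5 and 10.7 against 85.99, 78.2 and 31.9, at least 4.28-fold lower (adjusted p = 0.0558). Both were wide gaps that missed the threshold, on opposite sides of 0. Cxcl16 (0.69, adjusted p = 0.179), Il15 (0.74, adjusted p = 0.241), Ccl9 (0.49, adjusted p = 0.122) and Csf1 (0.45, adjusted p = 0.296) were on the higher side, and so was Il18 (0.18, adjusted p = 0.569). Cxcl12 (-0.21, adjusted p = 0.383) was on the lower side. Ccl2, under the filter in liver, read 89.2, 28.6 and 43.9 in KO mice and 10.6, 15.3 and 13.5 in WT mice (adjusted p = 0.139 without the filter).

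**Figure D4:**
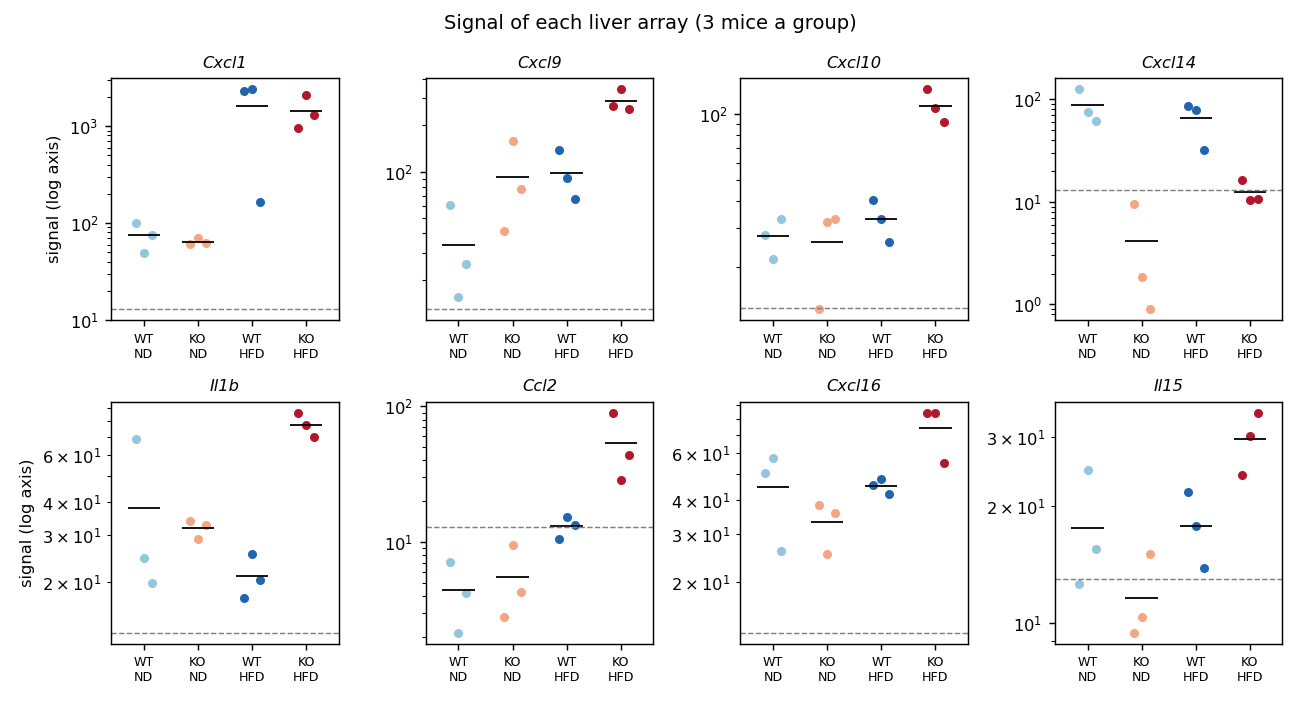
Signal of each liver array (y axis, MAS5 units, log scale) for 8 members in the 4 groups of genotype and diet. Each point is 1 mouse, the bar is the mean of 3 mice and the dashed line is the filter at 12.95. Il1b and Cxcl10 are highest in the 3 KO mice on HFD, Cxcl14 is lower in KO than in WT mice on both diets, and 1 WT mouse on HFD is far below the other HFD mice for Cxcl1. Cxcl14 reached the liver filter through the WT arrays on ND alone.

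Cxcl14 was the only member called between the genotypes in liver on normal diet, by limma. It read 9.63, 1.84 and 0.900 in KO mice and 125, 75.1 and 61.8 in WT mice. The arrays labelled KO were all dim and all below those labelled WT, and the level was at least 6.45-fold lower (adjusted p = 0.00133). It was 1 of 21 members, and none was higher, where 2.49% of all genes fell and 2.22% rose. Cxcl14 reached the liver filter through the WT arrays on ND alone, as Cxcl2 did through the KO arrays on HFD. For Cxcl14 those had to be the higher ones in this comparison, so its call carries no weight. A second Cxcl14 probe set, dimmer in liver, differed by -0.64 on ND and by -0.22 on HFD. Without WT mouse 686 there were 3 calls in place of 1. The other members nearest a call were Ccl6 (-1.01 ± 0.27, adjusted p = 0.0526), Cxcl9 (1.47 ± 0.49, adjusted p = 0.105) and Il1rn (-1.13 ± 0.42, adjusted p = 0.138).

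Of 21 members 2 were higher on HFD than on ND in livers labelled WT and none was lower, where 6.47% of all genes rose and 6.04% fell. Cxcl1 went from 101, 48.7 and 76.05 on ND to 2277, 2389.8 and 165 on HFD (3.74 ± 0.75, adjusted p = 0.00692). The array of mouse 560 was far below the other HFD arrays and still above all ND arrays. Cxcl9 went from 60.8, 15.6 and 25.3 to 138, 91.02 and 66.9 (1.71 ± 0.49, adjusted p = 0.0379). Its call was lost without mouse 546, 547, 687 or 690 (0.0929 to 0.142), and without mouse 686 there were 4 calls.

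In livers labelled KO 10 of 21 members rose with the diet and none fell, where 9.16% of all genes rose and 7.37% fell. The median member was at 0.56, against 0.02 for all genes. Cxcl1 went from 60.7, 69.7 and 62.9 to 959, 2068 and 1308 (4.42 ± 0.75, adjusted p = 0.0021). Cxcl10 went from 12.8, 31.99 and 33.1 to 129.98, 107 and 92.02 (2.19 ± 0.34, adjusted p = 0.00131). Both were called under all 12 alternatives, and their diet groups stood far apart. Cxcl9 went from 41.5, 158 and 77.4 to 267, 342 and 255 (1.84 ± 0.49, adjusted p = 0.0224). Il15 was at least 2.15-fold higher, from 9.45, 10.4 and 15.04 to 23.9, 30.3 and 34.6 (adjusted p = 0.0228). Il1b (1.28), Cxcl16 (1.16), Il33 (1.08), Ccl9 (0.56) and Il18 (0.54) rose as well, with adjusted p from 0.018 to 0.0485, and Cxcl14 was called (adjusted p = 0.039) with both groups dim. Ccl2, under the filter, went from 2.84, 9.52 and 4.28 to 89.2, 28.6 and 43.9, at least 3.72-fold (adjusted p = 0.00709 without the filter).

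Except for Cxcl1 and Cxcl10, each of these 10 calls was lost without 1 or another array. The number of members called was 3 without KO mouse 427, 429 or 719, 4 without 720 and 6 without 428 or 718. The adjusted p then reached 0.146 for Il18, 0.0937 for Il1b, 0.0927 for Cxcl9, 0.191 for Ccl9, 0.143 for Cxcl14, 0.129 for Il33, 0.0894 for Il15 and 0.0715 for Cxcl16. The interaction of genotype and diet called no member in liver by limma, where 0.62% of all genes were called higher and 0.369% lower. An unadjusted p under 0.05 was found for 6 members, and the share of all genes at that level was not computed. Of the 21 differences 19 were above 0, with a median of 0.55, and the share of all genes above 0 was not computed. Cxcl10 (1.93 ± 0.48, adjusted p = 0.0849), Pf4 (1.32 ± 0.35, adjusted p = 0.104) and Il1b (1.91 ± 0.52, adjusted p = 0.106) came nearest to a call. Leaving out mouse 718 or 690 gave 1 call.

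Fewer receptors and regulators were called in liver. Between the genotypes 3.73% of all genes rose and 2.98% fell on HFD, and 2.22% rose and 2.49% fell on ND. With diet 9.16% of all genes rose and 7.37% fell in KO liver, and 6.47% rose and 6.04% fell in WT liver. Of 7 chemokine receptor genes none was called between the genotypes on HFD by limma, with 2 at an unadjusted p under 0.05, and Ccr2 was nearest (1.38, adjusted p = 0.0614). Of 12 cytokine receptor genes none rose and 2 fell, the interleukin 6 receptor gene Il6ra (-1.13, adjusted p = 0.0351) and Il1rap (-0.48, adjusted p = 0.0403). Of 21 regulators 2 rose: Zfp36 (1.28, adjusted p = 0.00505), which speeds the decay of cytokine mRNA, and Tnfaip3 (1.04, adjusted p = 0.0359), an inhibitor of NF-kB signalling. With diet in KO liver 7 regulators rose, among them Pycard (1.35, adjusted p = 0.00307) and Nfkbie (1.32, adjusted p = 0.00543), and Ccr2 rose (1.45, adjusted p = 0.0286). In WT liver 4 rose and 1 fell, with Nfkbie (1.07, adjusted p = 0.0209) and Irf1 (0.71, adjusted p = 0.0353) of smallest p. Of the cytokine receptor genes 3 rose and 1, Il1r1 (-1.22, adjusted p = 0.0135), fell with diet in WT liver, and 2 rose and 1 fell in KO liver. On ND the genotypes differed in liver in no chemokine receptor gene, with none at an unadjusted p under 0.05 in limma, in 2 cytokine receptor genes, which fell (Il1r1 at -1.16, adjusted p = 0.0321, and Tnfrsf1a at -0.43, adjusted p = 0.0375), and in 1 regulator, Nfkbib (-0.65, adjusted p = 0.0258).

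Macrophage markers in liver on HFD summed to 5763 to 6985 in KO and 4584 to 5828 in WT mice, and on ND to 3587 to 4462 and 3805 to 5445. Of 16 tested on HFD 3 rose and 1 fell in KO mice, where 3.73% of all genes rose and 2.98% fell. The sums overlapped between the genotypes. Neutrophil markers summed to 175 to 219 and 72.02 to 179 on HFD, with Cxcr2, Camp, Ltf and Elane dim in both. None of 3 was called by limma, with 2 at an unadjusted p under 0.05. Hepatocyte markers summed to 56760.3 to 64499 against 72762 to 82455, and 4 of 7 fell. The Actb 3′ to 5′ ratio was 1.70 ± 0.01 (SD, n = 3) in KO and 2.04 ± 0.05 in WT liver on HFD, and 1.29 ± 0.05 and 1.18 ± 0.07 on ND. Their part in the liver differences was not tested.

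13 members were under the filter in liver. Ccl2 is given above. Ccl3 read 0.450 to 13.9 over the 12 liver arrays, Ccl7 1 to 17.8 and Ccl11 0.320 to 4.58. Ccl17, Ccl22 and Ccl24 read 1.09 to 29.2, 0.780 to 20.7 and 1.67 to 26.4. Cx3cl1 read 4.07 to 17.5, Cxcl5 0.170 to 7.77 and Xcl1 0.520 to 12.99. Tnf, Il6 and Il10 read 0.930 to 8.36, 0.950 to 17.6 and 2.76 to 17.6. A signal this low gives no order of groups. Of the tested members with no call in any liver comparison, Ccl4 read 17.6 to 40.9, Ccl5 4.32 to 36.05 and Ccl8 1.69 to 35.7. Ccl6 read 105 to 366, Ccl25 16.2 to 40.7 and Cxcl2 6.30 to 56.8. Cxcl12 read 813 to 1377 and Cxcl13 43.8 to 212. Pf4, Il1rn and Csf1 read 44.3 to 114, 14.6 to 103 and 36.00 to 81.03.

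The tissues of the WT mice on HFD differed in most of these genes. Of 17 members tested in both tissues 10 were higher in fat and 4 lower, where 39.2% of all genes were higher and 26.1% lower. The median member differed by 1.08 and the median gene by 0.19. With mouse as a block 15 were called, 10 higher and 5 lower. Ccl8 read 524, 519 and 477 in fat and 33.5, 8.18 and 2.37 in liver, with 2 of the 3 liver arrays under the filter. With those raised to the filter the difference was 4.83, and the call stood (adjusted p = 4.12e-07 as measured). Pf4 read 798, 984 and 840.5 in fat and 69.5, 44.3 and 57.1 in liver (3.96 ± 0.27, adjusted p = 5.13e-11). Ccl6 read 1555, 3471 and 2056 in fat and 208, 250.01 and 157 in liver (3.47 ± 0.32, adjusted p = 5.39e-09). All fat arrays of these 3 were above all liver arrays.

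Cxcl9 (2.58 ± 0.54, adjusted p = 0.000304) and Ccl5 (adjusted p = 0.000967, with 2 of the 3 liver arrays under the filter) were higher in fat too. So were Il15 (2.04), Il33 (1.89), Csf1 (1.75), Cxcl16 (1.08) and Ccl9 (1.01), of which Ccl9 was not called without the fat array of mouse 547 (adjusted p = 0.0766). Cxcl16 was not called with quantile normalization (0.0655) or with only the arrays compared (0.0579). Lower in fat were Cxcl1 (-3.78 ± 0.64, adjusted p = 2.84e-05), Cxcl12 (-1.57 ± 0.16, adjusted p = 3.94e-08), Cxcl14 (-1.48 ± 0.63, adjusted p = 0.0444) and Il18 (-1.22 ± 0.21, adjusted p = 2.61e-05). The call of Cxcl14 was lost without the fat array of mouse 546 or 560 or the liver array of 546 or 547 (0.0636 to 0.202). It was also lost with no filter (0.0606), with no floor (0.0513) and with the average of its probe sets, where the difference was -0.35 (0.623). The groups of Cxcl14 overlapped, and those of the other called members did not. In this fit each gene has 1 probe set for both tissues, so that of Cxcl1 is the liver's and not the one used in fat above.

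With the labels as given, the effect of the knockout on HFD differed between the tissues for 3 of 17 members, 2 with a higher difference in fat and 1 with a lower, where 5.34% and 7.43% of all genes did. These values depend on the liver labels, which Ffar4 ran against. Exchanging KO and WT in liver, an alternative chosen after seeing the data, gave 7 calls, all higher, where 11.7% of all genes were higher, and left 0.19 for Cxcl14 (adjusted p = 0.9), 0.55 for Cxcl9 (0.65) and 0.71 for Cxcl12 (0.0318). As labelled, Cxcl14 differed by 2.48 in fat and -2.29 in liver, which is a difference of 4.77 ± 0.89, adjusted p = 0.00173, with the liver arrays labelled KO near or under the filter. Cxcl9 differed by -1.05 in fat and 1.60 in liver (-2.65 ± 0.77, adjusted p = 0.0282). Cxcl12 differed by 0.92 and -0.21 (1.13 ± 0.23, adjusted p = 0.00337). For Cxcl14 the KO arrays on HFD were above the WT arrays in fat and below them in liver, and for Cxcl9 the order was the reverse. The call of Cxcl9 was lost without the fat array of 429 or 546 or the liver array of 428, 547 or 560 (0.0532 to 0.0888), and that of Cxcl12 with the mean of its probe sets (0.272). Cxcl10 was called in both tissues of the same mice, at 1.27 in fat and 1.74 in liver.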

How the data were processed

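Mouse epididymal fat and liver RNA was measured on 24 Affymetrix arrays. The deposited signal intensity of each probe set was made by the authors with MAS5, per the submitters' processing notes; no version is given there. MAS5 scales arrays to a common trimmed mean, and its low signals are noisy. Groups came from the labels. 1 column is 1 mouse and tissue. From these intensities, each signal under the 10th percentile of its tissue (1.08 in fat, 1.10 in liver) was set to that percentile before taking log2. Of 45101 probe sets, 34945 carry a single gene symbol in the platform annotation, which can be old. Genes were kept when their mean log2 reached the median probe set, which left 11613 genes in fat, 11125 in liver and 10057 in both. limma 3.58.1 in R 4.3.3 (lmFit, eBayes with trend) fitted the 4 groups of a tissue, or all 8, with Benjamini-Hochberg adjustment over all genes kept. The script was tested on simulated data. A bound raises the dim group's arrays to the filter. The same mouse gave both tissues, so mice pair the fat and liver arrays: deviations from the group means correlated at 0.0351 to 0.129, above 0.1 in 4 of 12 mice.

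Values by array are given for members called between genotypes or in the interaction, and for up to 5 rises and 5 falls of each diet or tissue comparison. For each receptor and regulator list, up to 4 genes of smallest p are named for the genotypes on HFD and up to 2 otherwise. The members and lists were chosen with earlier results of these data known. Alternatives were quantile normalization, no filter, other floors, the average over each gene's probe sets, only the arrays compared, and leaving out arrays.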

Additional observations from a re-analysis of the deposited data

Results flagged for a closer look

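The effect of the knockout on HFD differed between fat and liver for 3 members, by the limma test of that difference over 10057 genes, where the difference is fat minus liver of KO minus WT as labelled. For Cxcl14 it was 4.77 ± 0.89, adjusted p = 0.00173. For Cxcl12 it was 1.13 ± 0.23, adjusted p = 0.00337, on 1 of its 2 bright probe sets. For Cxcl9 it was -2.65 ± 0.77, adjusted p = 0.0282, the only one of the 3 with a lower value in fat. Ffar4 in liver runs against the labels, and the result depends on them: with KO and WT exchanged in liver the differences were 0.19 for Cxcl14 (adjusted p = 0.9), 0.71 for Cxcl12 (0.0318) and 0.55 for Cxcl9 (0.65). Each rests on 3 mice a group, and the causes were not tested.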

How the results depend on the processing

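Of 84 results for single members, 50 were called under every alternative run for them, 34 lost the call or changed direction under at least 1, and 1 changed direction: the difference between tissues of Cxcl9, at 0.55 with the genotype labels exchanged in liver. The number of members called between the genotypes in fat on HFD was 11, 6 to 11 with 1 array left out, 8 with only the arrays compared and 10 with quantile normalization or the average of a gene's probe sets. On ND it was 0 throughout. The number was 14 with diet in WT fat (13 to 14 with 1 array left out, 11 without mice 686 and 690, 17 with quantile normalization and 16 with only the arrays compared), and 18 in KO fat (15 to 17). For the interaction in fat, 0 members became 2 with quantile normalization, 3 with a floor at the median probe set, 1 with the average of a gene's probe sets, 2 without the fat arrays of mice 427 and 547 and 1 without those of 686 and 690, with a range of 0 to 3 over single arrays. In liver, the 2 members called between genotypes on HFD became 4 when only the arrays compared were fitted (1 to 3 over single arrays). The 1 member on ND became 2 with quantile normalization, with a floor at the median probe set, with the average of a gene's probe sets and with only the arrays compared (1 to 3). The 2 members called with diet in WT liver became 1 with no filter, with the average of a gene's probe sets and with only the arrays compared (1 to 4). The 10 in KO liver became 5 with no filter and 6 with the average of a gene's probe sets (3 to 6). The interaction in liver ranged from 0 to 1. For fat against liver in WT mice the count of 14 ranged from 13 to 14. The 3 members whose genotype effect differed between tissues became 5 with a floor at the median probe set and 7 with the genotype labels exchanged in liver (2 to 4). The causes were not tested. With mouse as a replicate block, the pairing of fat and liver gave 15 members in place of 14 for the tissues, and still 3 for the difference of genotype effects. No paired analysis was possible within a tissue because the groups compared share no mice. Quantile normalization moved the median gene from -0.03 to 0.10 for diet in WT fat and from 0.19 to 0.02 between tissues. Tests without the filter on members under it and the exchange of liver labels were added after seeing the data. Signals near the filter, 12 members in fat and 13 in liver, carry no order of groups beyond the calls given.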
